A study of Mus musculus with 18 samples.

Results

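Expression of all genes was compared between the descending aortas of 6 HGPS mice and 6 WT mice at 2 mo. HGPS, Hutchinson–Gilford Progeria Syndrome, is a disease of premature aging. The genes described are the 14771, of 54281 in the count table, that had at least 10 counts in at least 6 of these 12 mice. They are described here by pathway and by cell type program, leaving aside lysyl oxidase, the extracellular matrix and the respiratory chain.

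The HGPS mice have the genotype LMNAG609G, a knock-in at the endogenous Lmna locus that is active wherever the gene is, so that no cell type is targeted. They were male C57BL/6 mice of 64 to 75 d. The 2-mo WT mice were male C57BL/6 mice as well, 5 of them 62 d old and the sixth 95 d old. No mouse of either group received a treatment by its label. RNA came from the whole vessel, with intima, media and adventitia together. Lower values of a marker gene in HGPS can come from fewer cells of a type or from less RNA per cell. As values are shares of a library, they can also come from more RNA of other cells. The counts alone cannot tell these apart. For smooth muscle, the paper counted nuclei in sections and found similar numbers in the media of 2-mo WT and HGPS aortas. It reported similar apoptosis in these aortas as well. A group of 6 WT mice at 24 mo was sequenced with them and shares the estimate of the spread in the fit, but is not compared here.

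Lamin A and lamin C, both encoded by Lmna, build the lamina under the inner nuclear membrane, to which chromatin and, through the LINC complex, the cytoskeleton are attached. The progeria mutation opens a cryptic splice site, and the product, progerin, keeps a farnesyl group that holds it in the membrane. In the arterial wall, the loss of smooth muscle cells of the media is the best known lesion of the disease, and persistent DNA damage signalling through p53 is among its best known cellular features.

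The totals were 17.8 to 30.8 M counts in HGPS and 12.4 to 21 M counts in 2-mo WT mice. The share of counts in genes of the mitochondrial genome was 4.47% to 7.80% (median 5.12%) in HGPS and 3.15% to 4.66% (median 4.01%) in 2-mo WT. Values are CPM, counts per M counts of the TMM-scaled library, given as the lowest, highest and median mouse of 6. Differences are log2 fold changes of HGPS against 2-mo WT with their standard error (SE), and each adjusted p is from edgeR's quasi-likelihood test with Benjamini-Hochberg adjustment over all 14771 genes. A gene is written as having risen or fallen where this adjusted p was under 0.05, and as called where it was under 0.001 and the change at least 1.5-fold. Defining genes of the arterial wall were present in every one of the 12 mice, the smooth muscle myosin gene Myh11 at 3419 CPM or more and the endothelial gene Pecam1 at 306 CPM or more. The labels do not say how the mice are related, and the p-values measure the spread between these mice.

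Of all tested genes, 809 were called higher in HGPS (5.48%) and 655 were called lower (4.43%), 9.91% together. At an adjusted p under 0.05, 3293 genes rose (22.3%) and 3252 fell (22%). In 11.1% of the tested genes every HGPS mouse was above every 2-mo WT mouse, and in 11.3% every HGPS mouse was below. The median log2 fold change over all tested genes was -0.0018. Every count of list members given here is to be read against these shares. In edgeR's glmTreat, whose null is a change of up to 1.5-fold, 104 genes were higher and 39 lower at the same adjusted p. Of the 189 called genes given here by name, 36 lost the call with some 1 of the 12 mice left out, while keeping an adjusted p of 0.00318 or lower. They were Acta2, Adgre1, C1qb, Cacna1g, Ccl6, Ccl9, Cd163, Clspn, Csf1r, Ctss, Cybb, Dnmt3a, Fdps, Fstl3, Hells, Hey2, Hk2, Hspa4l, Hspe1, Id4, Igf1, Igfbp2, Inhba, Irf7, Itgax, Itgb3, Kcnk3, Lyz1, Lyz2, Mgp, Oasl2, Rpa1, Smad6, Tnfaip3, Uhrf1 and Wnt16. Mice were left out 1 at a time, and the number of calls lost ran from 11 without HGPS replicate 4 to 26 without 2-mo WT replicate 3 or 4. HGPS replicates 1 to 3 have the sample numbers 19, 22 and 23 in the labels and replicates 4 to 6 the numbers 48 to 50, while the 2-mo WT mice have 41 to 46. The labels do not say what the numbers mark, and neither range holds a 2-mo WT mouse. Each range of HGPS mice was therefore also fitted alone against all 6 2-mo WT mice. Replicates 1 to 3 gave 781 genes called higher and 596 lower, and replicates 4 to 6 gave 279 and 232. The difference between these 2 fits was not tested.

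**Figure D1:**
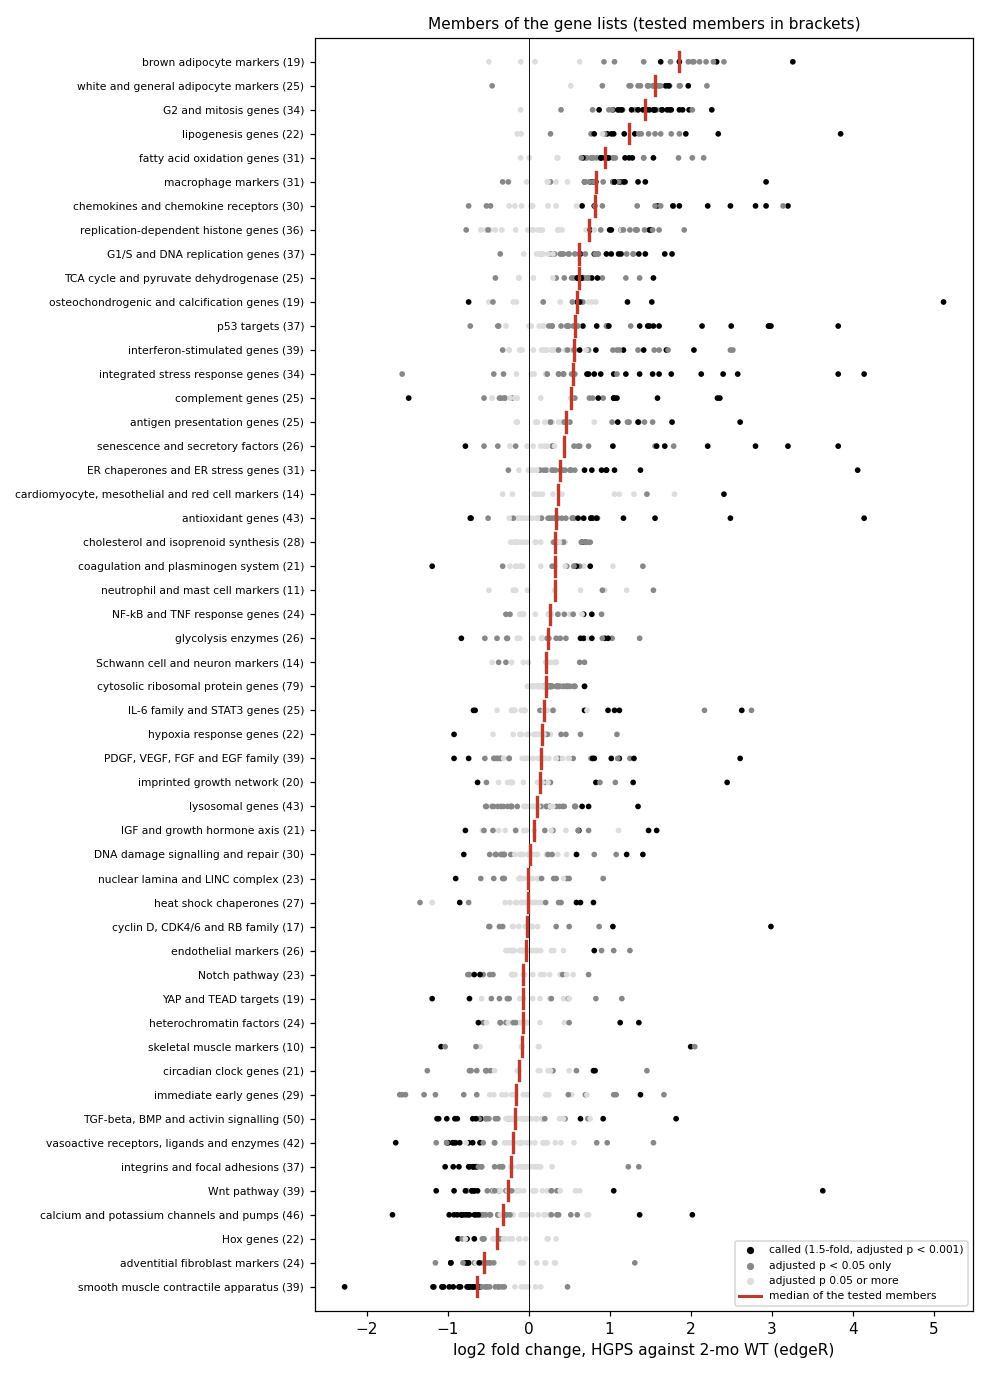
Each dot is a tested gene, placed by its log2 fold change in HGPS against 2-mo WT aortas on the x axis, and each line is a gene list with its number of tested members in brackets, for the lists with at least 10. Black dots are called genes, dark grey dots have an adjusted p under 0.05 only, pale dots neither, and the red bar is the median of a list, which runs from -0.64 for the smooth muscle contractile apparatus to 1.86 for the brown adipocyte markers.

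Most genes that p53 switches on rose. Of 37 tested p53 targets, 15 were called higher and none lower, 27 rose and 3 fell, with a median log2 fold change of 0.57. Cdkn1a encodes p21, which stops the cell cycle by binding cyclin-dependent kinases. It was at 84.8 to 138 CPM (median 112) in HGPS and 12.9 to 17.2 CPM (median 13.4) in 2-mo WT, the groups far apart. Its log2 fold change was 2.99 (SE 0.13), or 7.92-fold (adjusted p = 2.52e-11), with the smallest adjusted p of the list.

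The others cover several arms of the response. Ccng1, a cyclin that recruits a phosphatase to Mdm2, was at 401 to 489 CPM (median 443) in HGPS and 138 to 179 CPM (median 162) in 2-mo WT and rose by 1.49 on the log2 scale (SE 0.081). Among genes of cell death, the death receptor family member Eda2r rose by 2.14 on the log2 scale (SE 0.12), the mitochondrial pore protein Bax by 0.97 (SE 0.061), the BH3-only protein Pmaip1 by 2.97 (SE 0.37) and the death receptor Tnfrsf10b by 0.84 (SE 0.098). The groups did not overlap in any of these. Mdm2, the ubiquitin ligase that degrades p53 and is itself a target, rose by 0.67 on the log2 scale (SE 0.067). Phlda3, which holds back Akt at the membrane, rose by 1.54 on the log2 scale (SE 0.14), the nuclease Aen by 1.61 (SE 0.11) and Sesn2, a sensor of leucine that restrains mTORC1, by 1.37 (SE 0.16). Gdf15, a circulating stress cytokine of the TGF-β family, was at 2.81 to 8.79 CPM (median 7.43) in HGPS and 0.348 to 0.621 CPM (median 0.468) in 2-mo WT. This was the largest rise of the list, with a log2 fold change of 3.82 (SE 0.28).

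The list of DNA damage signalling and repair genes did not move as 1 block. Of 30 tested members, 7 rose and 9 fell, and the median was 0.012. Called higher were Brca1 (log2 fold change 1.21) and Clspn (1.41), both of which act at replication forks, and Rpa1, a subunit of the protein that coats single-stranded DNA (0.59). Trp53bp1, which encodes 53BP1, a chromatin reader at double-strand breaks, was at 32.8 to 44.8 CPM (median 35.5) in HGPS and 57.9 to 72.9 CPM (median 63.7) in 2-mo WT and was called lower (log2 fold change -0.80, SE 0.082). Parp1, which senses DNA breaks, fell by less than 1.5-fold (log2 fold change -0.30, SE 0.049). The number called higher was 1 with HGPS replicate 2 left out.

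Among senescence genes, 15 of 26 tested members rose and 4 fell. Timp1, an inhibitor of matrix proteases that is secreted by senescent and other cells, was at 35 to 73.2 CPM (median 50.7) in HGPS and 15.4 to 17.2 CPM (median 16.5) in 2-mo WT and rose by 1.68 on the log2 scale (SE 0.17). The cell cycle inhibitor Cdkn2b rose by 1.04 on the log2 scale (SE 0.15). Cdkn2a, whose products include the senescence marker p16, was not tested: it was at 0 to 0.112 CPM in HGPS and 0 to 0.106 CPM in 2-mo WT. Il6 was not tested either, at 0.112 to 0.402 CPM in HGPS and 0 to 0.139 CPM in 2-mo WT. Glb1, the gene of the β-galactosidase used to stain senescent cells, fell by 0.38 on the log2 scale (SE 0.073). In the cyclin D and RB list, which holds Cdkn1a and Cdkn2b as well, 5 of 17 tested genes rose and 4 fell, and these 2 inhibitors were the called ones. Of its other inhibitors of the cycle, Cdkn2c, which encodes p18, rose (log2 fold change 0.87), and Cdkn1b, which encodes p27, and Rbl2, which encodes the pocket protein p130, fell, with log2 fold changes of -0.49 and -0.36.

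Genes of the lamina and LINC complex did not move as a set. Of 23 tested, 6 rose and 5 fell, where 22.3% and 22% of all tested genes did, and their median log2 fold change was -0.0025. Lmna itself rose by 0.47 on the log2 scale (SE 0.12), from 340.4 to 487 CPM (median 416) in 2-mo WT to 444 to 652 CPM (median 599) in HGPS, with overlapping groups. Counts per gene do not separate progerin from the other products, so this value does not check the genotype. The only called gene of the 23 tested was Syne2, which encodes nesprin-2, the link from the nuclear membrane to actin. It was at 119.7 to 169.6 CPM (median 137) in HGPS and 242 to 283 CPM (median 265) in 2-mo WT, a log2 fold change of -0.90 (SE 0.13, adjusted p = 2.08e-05). The inner membrane protein Sun1, its partner, fell by 0.30 on the log2 scale (SE 0.052). Of 24 tested heterochromatin factors, 3 rose and 7 fell. Called lower was the DNA methyltransferase gene Dnmt3a (log2 fold change -0.62, SE 0.10). Called higher were Uhrf1 (log2 fold change 1.36) and Hells (1.13), which act on newly replicated DNA. None of these 3 calls held in every fit with 1 mouse left out. The number called higher was 0 with HGPS replicate 3 or 2-mo WT replicate 2 left out, and 1 with HGPS replicate 1, 2, 4, 5 or 6 or 2-mo WT replicate 1, 3, 4 or 6 left out. The number called lower was 0 with HGPS replicate 3 or 2-mo WT replicate 2 left out, and 2 with HGPS replicate 4 left out. Ezh1, a histone H3 lysine methyltransferase, fell by 0.56 on the log2 scale (SE 0.066).

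Beside the rise of p21, genes of the dividing cell rose. Of 34 tested G2 and mitosis genes, 33 rose and none fell, and 22 were called, at a median log2 fold change of 1.43. With 1 mouse left out at a time, 17 to 21 were called. Mki67, the Ki-67 proliferation marker, was at 11 to 20 CPM (median 15.8) in HGPS and 3.25 to 5.97 CPM (median 5.3) in 2-mo WT and rose by 1.65 on the log2 scale (SE 0.22). Top2a, topoisomerase II of mitotic chromosomes, was at 11.8 to 23.5 CPM (median 15.2) in HGPS and 4.07 to 6.32 CPM (median 4.89) in 2-mo WT and rose by 1.64 on the log2 scale (SE 0.19). Every HGPS mouse was above every 2-mo WT mouse in both. The mitotic cyclin Ccnb1 rose by 1.98 on the log2 scale (SE 0.27), its kinase Cdk1 by 1.71 (SE 0.31), the spindle midzone protein Prc1 by 1.76 (SE 0.21) and the centromeric histone Cenpa by 1.04 (SE 0.19). With the mean level of the fat marker genes, described further on, added to the fit as a covariate, 22 members rose and 2 were called, the median being 1.34. With HGPS replicates 4 to 6 only, 27 rose and 6 were called, and with replicates 1 to 3 only 12 were called.

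Mitotic genes are known to share 2 short promoter elements, the cell cycle genes homology region (CHR, TTTGAA) and the CCAAT box (CCAAT), through which they are silenced and activated over the cycle. RefSeq promoter windows of GRCm38.p6 run from 250 bases before to 50 after a transcription start. Of the 38 members of the list, tested or not, 32 had a window. TTTGAA was on either strand in 24 of their 33 windows (72.7%, against 17.9% of all 32851 windows). CCAAT was in as many (72.7%, against 37.4%). Of the 20 windows of called members, 17 held TTTGAA and 18 held CCAAT. The stretches of the called members with the smallest adjusted p that held both are printed to show how close to the start they lie. Capitals mark the matches on either strand, the stretch of Top2a is chr11:99024177-99024439, minus strand, and that of Prc1 is chr7:80294384-80294481, plus strand.
Top2a: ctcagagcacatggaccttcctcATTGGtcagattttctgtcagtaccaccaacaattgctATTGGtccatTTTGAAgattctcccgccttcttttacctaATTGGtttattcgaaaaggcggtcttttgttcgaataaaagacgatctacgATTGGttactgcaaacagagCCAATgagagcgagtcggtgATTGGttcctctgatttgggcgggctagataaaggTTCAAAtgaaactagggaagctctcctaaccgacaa
Prc1: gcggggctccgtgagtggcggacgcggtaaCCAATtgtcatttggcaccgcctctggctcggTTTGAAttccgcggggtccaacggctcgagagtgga

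Most genes of the G1/S transition and of DNA replication rose as well. Of 37 tested, 29 rose, 1 fell and 10 were called higher, at a median of 0.62. With 1 mouse left out at a time, 7 to 8 were called higher. Ccne2, the cyclin E that drives entry into S phase, rose by 1.77 on the log2 scale (SE 0.24) and Ccna2, the S phase cyclin, by 1.44 (SE 0.25). Of the MCM helicase, Mcm5 rose by 1.11 on the log2 scale (SE 0.12) and Mcm7 by 0.64 (SE 0.099), and both were called. The E2F site (TTTCCCGC, TTTGGCGC or TTTCGCGC) was found in 13 of 35 windows of the list's members, tested or not (37.1%, against 1.84% of all). It was in 3 of the 9 windows of called members. Of 36 tested genes of histones made in S phase, 16 rose and 2 fell. The number falling was 1 with HGPS replicate 2, 4 or 5 or 2-mo WT replicate 1, 4, 5 or 6 left out. The linker histone gene Hist1h1c was at 149 to 236 CPM (median 196) in HGPS and 66.4 to 115 CPM (median 99.2) in 2-mo WT and rose by 1.02 on the log2 scale (SE 0.16). With the fat marker score in the fit, none of the histone genes was called and their median went from 0.74 to 0.28. Histone genes are near-identical copies, so reads could be shared out among them. Of the cyclins D, Ccnd1 rose (log2 fold change 0.50, SE 0.099) and Ccnd2 fell (-0.32, SE 0.10).

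**Figure D2:**
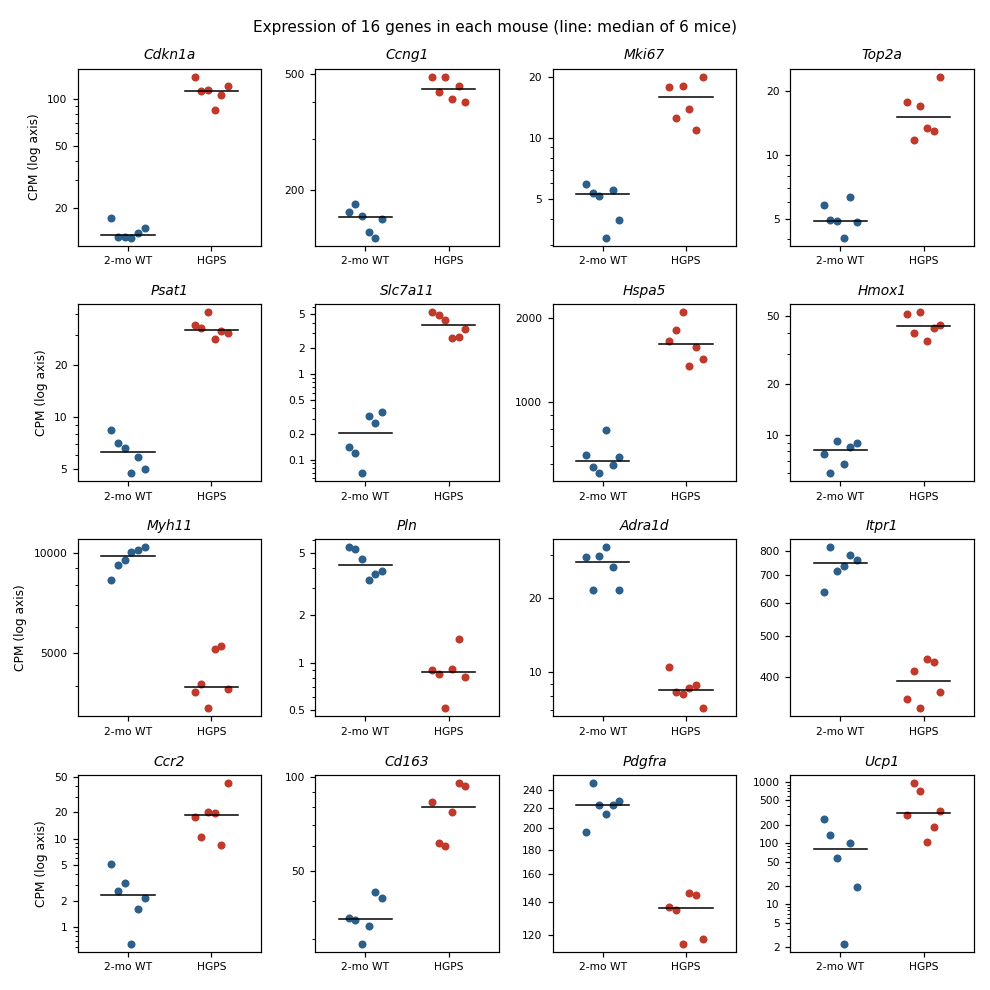
Each panel shows CPM of 1 gene on a log axis, each point 1 mouse, for the 6 2-mo WT and the 6 HGPS mice, with the median as a line. Cdkn1a, at 84.8 to 138 CPM (median 112) in HGPS and 12.9 to 17.2 CPM (median 13.4) in 2-mo WT, and 14 of the other 15 genes have no overlap between the groups, while Ucp1 overlaps.

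Most genes of the contractile apparatus of smooth muscle fell, with the lowest median of the lists that had at least 10 tested members. Of 39 tested members, 22 were called lower and none higher, 32 fell and 1 rose, at a median of -0.64. Summed over the list, the level was 45774 to 61451 CPM (median 49719) in HGPS and 71105 to 85304 CPM (median 83204) in 2-mo WT. Myh11, the myosin heavy chain that defines the lineage, was at 3419 to 5244 CPM (median 3971) in HGPS and 8326 to 10395 CPM (median 9789) in 2-mo WT. It fell by 1.17 on the log2 scale (SE 0.11, adjusted p = 1.78e-07), 2.26-fold. Acta2, smooth muscle α-actin, was at 9265 to 12691 CPM (median 10797) in HGPS and 13816 to 18991 CPM (median 15939) in 2-mo WT and fell by 0.60 on the log2 scale (SE 0.088).

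The members did not fall evenly. Tagln, the actin-binding protein SM22α, was at 4537 to 6986 CPM (median 5317) in HGPS and 5041 to 5723 CPM (median 5470.0) in 2-mo WT, with a log2 fold change of -0.0062 (SE 0.084, adjusted p = 0.961). Genes of the switch of myosin were called lower. They were Mylk, the kinase that starts contraction (log2 fold change -0.72), Myl9, its substrate (-0.74), and both targeting subunits of the phosphatase that ends it, Ppp1r12a (-0.98) and Ppp1r12b (-0.76). Pln, phospholamban, the brake on the calcium pump of the sarcoplasmic reticulum, had the largest change, from 3.34 to 5.41 CPM (median 4.21) in 2-mo WT to 0.511 to 1.41 CPM (median 0.870) in HGPS (log2 fold change -2.27, SE 0.21). Srf, the transcription factor that binds the CArG boxes of these genes, fell by 0.64 on the log2 scale (SE 0.077). Synm, which encodes the intermediate filament protein synemin, was the member that rose (log2 fold change 0.48, SE 0.073). Once the fat marker score was in the fit 27 members fell and 12 were called lower, and with HGPS replicates 4 to 6 only 13 were.

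A CArG box was present in 4 of 45 promoter windows of the list's members, tested or not (8.9%, against 1.63% of all windows). It was in 3 of the 23 windows of called members. The stretches of the called members with the smallest adjusted p that held one are shown with the box in capitals. That of Vcl, which encodes the adhesion protein vinculin, is chr14:20929148-20929210, plus strand, and that of Myl9 is chr2:156775273-156775342, plus strand.
Vcl: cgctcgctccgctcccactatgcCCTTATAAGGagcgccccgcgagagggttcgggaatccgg
Myl9: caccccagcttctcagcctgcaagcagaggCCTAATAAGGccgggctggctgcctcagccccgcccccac

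Of genes that set calcium and membrane potential, more fell than rose. Of 46 tested channels and pumps, 25 fell and 7 rose, 13 were called lower and 2 higher, at a median of -0.31. Itpr1, the receptor through which inositol trisphosphate releases calcium from the store, was at 336 to 441 CPM (median 390.5) in HGPS and 639.7 to 816 CPM (median 748) in 2-mo WT and fell by 0.92 on the log2 scale (SE 0.08). The other release channel, Ryr2, fell by 0.98 on the log2 scale (SE 0.13). Of the voltage-gated calcium channels, the accessory subunits Cacna2d1 (log2 fold change -0.83) and Cacnb2 (-0.78) and the pore subunits Cacna1d (-0.88) and Cacna1g (-0.73) were called lower. Abcc9 and Kcnj8, the subunits of the vascular ATP-sensitive potassium channel, had log2 fold changes of -0.81 and -0.65 and were both called. The potassium channel Kcnc4 fell most, from 14.7 to 21.1 CPM (median 19.4) in 2-mo WT to 4.74 to 7.17 CPM (median 5.67) in HGPS (log2 fold change -1.68, SE 0.18).

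Called higher in this list were 2 potassium channels. Kcna5, a voltage-gated channel of vascular muscle, was at 1.56 to 5.23 CPM (median 3.06) in HGPS and 0.879 to 1.38 CPM (median 1.27) in 2-mo WT (log2 fold change 1.37, SE 0.25). Kcnk3, the acid-sensitive leak channel TASK-1, which brown fat also expresses, was at 10.6 to 36.5 CPM (median 26.9) in HGPS and 1.38 to 13.4 CPM (median 5.62) in 2-mo WT (log2 fold change 2.02, SE 0.41) with overlapping groups. The call of Kcnk3 was lost, leaving 1 channel or pump called higher, with HGPS replicate 1, 2, 3 or 6 or 2-mo WT replicate 2, 3, 4, 5 or 6 left out.

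Receptors and enzymes that set vessel tone fell in part. Of 42 tested, 16 fell and 3 rose, 10 were called lower and none higher. Adra1d, the α1D-adrenergic receptor, was at 7.14 to 10.5 CPM (median 8.44) in HGPS and 21.5 to 32.1 CPM (median 28) in 2-mo WT, a log2 fold change of -1.64 (SE 0.13, adjusted p = 4.57e-08). Tbxa2r, the thromboxane receptor, fell by 1.01 on the log2 scale (SE 0.11). On the relaxing side, the 2 subunits of the nitric oxide receptor guanylyl cyclase fell, Gucy1a1 (log2 fold change -0.99) and Gucy1b1 (-0.85). The natriuretic peptide receptor Npr1 (log2 fold change -0.74), the cGMP-dependent kinase Prkg1 (-0.69) and the phosphodiesterase Pde5a (-0.90), which degrades cGMP, were called lower too. Genes of constriction and of relaxation were both among those called. Ednra, an endothelin receptor, had a log2 fold change of -0.094 (adjusted p = 0.685) and Edn1, its ligand, of -0.24 (adjusted p = 0.484).

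Integrins and focal adhesion genes fell in part, with 10 of 37 tested called lower, none called higher and a median of -0.22. Itga8, an integrin of contractile cells, was at 3013 to 4358 CPM (median 3408) in HGPS and 6048 to 7152 CPM (median 6855) in 2-mo WT and fell by 0.93 on the log2 scale (SE 0.088). Flna, the actin cross-linker filamin A, was at 8714 to 11799 CPM (median 9394) in HGPS and 13569 to 18204 CPM (median 15982) in 2-mo WT and fell by 0.69 on the log2 scale (SE 0.093). Itga9 (log2 fold change -0.86), Itga7 (-0.68), Itgb3 (-0.68) and zyxin, Zyx (-0.64), were called lower as well. Of 19 tested YAP and TEAD targets, 4 rose and 6 fell. Ankrd1 rose (log2 fold change 0.49, SE 0.16) and the receptor kinase Axl fell (-0.36, SE 0.066).

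Most markers of adventitial fibroblasts fell, and those of endothelium did not move together. Of 24 tested fibroblast markers, 15 fell, 7 of them called, and 1 rose, at a median of -0.55. The number rising was 0 with HGPS replicate 6 left out, 2 with HGPS replicate 2 or 3 or 2-mo WT replicate 1 or 6 left out, and 3 with HGPS replicate 1 left out. Their summed level was 5102 to 6479.6 CPM (median 5746) in HGPS and 7913 to 9066 CPM (median 8187) in 2-mo WT. Pdgfra, the PDGF receptor that marks the fibroblast lineage, was at 115 to 146 CPM (median 136) in HGPS and 196 to 248 CPM (median 223) in 2-mo WT, a log2 fold change of -0.74 (SE 0.076). Scara5, a ferritin receptor of adventitial progenitors, fell by 0.96 on the log2 scale (SE 0.096), while Dpt, dermatopontin, had a log2 fold change of -0.10 (adjusted p = 0.495).

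Of 26 tested endothelial markers, 4 rose and none fell, with a median of -0.028. Pecam1 was at 409 to 674 CPM (median 493) in HGPS and 306 to 637 CPM (median 537) in 2-mo WT, and Cdh5, the junction protein VE-cadherin, at 51 to 60.1 CPM (median 57.1) in HGPS and 25.3 to 76.6 CPM (median 55) in 2-mo WT. The groups overlapped in both. Those that rose were the VEGF receptors Flt1 (log2 fold change 0.81, SE 0.12) and Kdr (1.25, SE 0.42), Vcam1, an adhesion receptor for leukocytes that smooth muscle also makes (0.90, SE 0.20), and Robo4, a guidance receptor of endothelium (1.05, SE 0.32). Flt1 was the called one. The groups overlapped in Kdr, whose adjusted p was 0.058 without HGPS replicate 2, 0.062 without replicate 3, 0.0506 without 2-mo WT replicate 4 and 0.0505 without 2-mo WT replicate 6, and whose log2 fold change was -0.32 with the fat marker score in the fit.

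**Figure D3:**
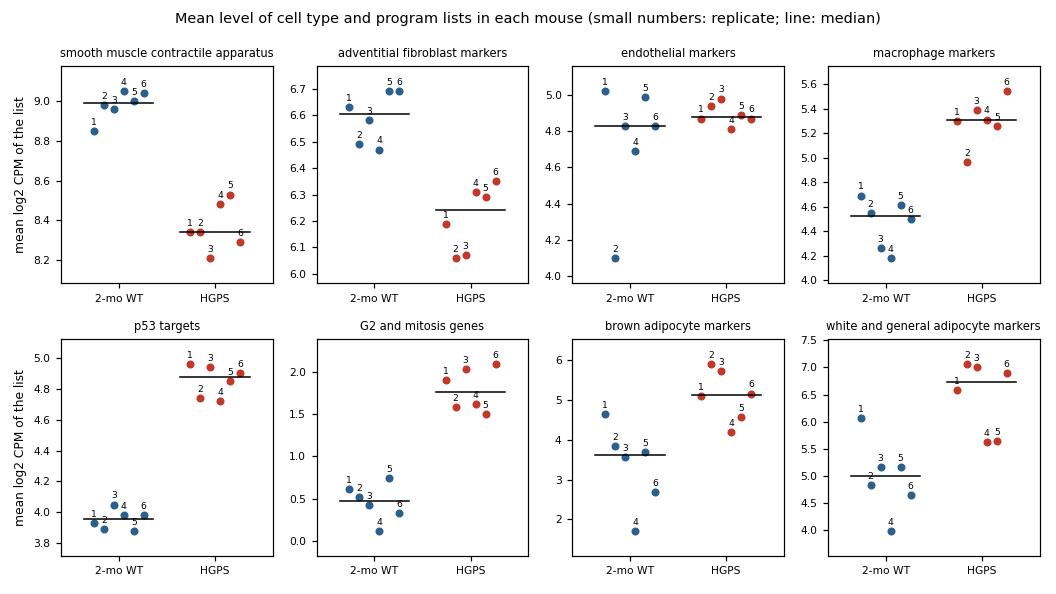
Each point is 1 mouse, at the mean log2 CPM over the tested members of a list, with the replicate number beside it and the median of 6 mice as a line. The smooth muscle (8.21 to 8.53 in HGPS and 8.85 to 9.05 in 2-mo WT), fibroblast, macrophage, p53 and mitosis lists separate the groups, and the endothelial and both adipocyte lists do not.

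Most macrophage markers rose. Of 31 tested, 24 rose and 2 fell, 15 were called higher, and the median was 0.83. Csf1r, the receptor for the factor that macrophages need to survive, was at 131 to 174 CPM (median 166) in HGPS and 79 to 121 CPM (median 101) in 2-mo WT (log2 fold change 0.69, SE 0.13). The largest change was that of Ccr2, the receptor that brings monocytes from blood, at 8.55 to 43 CPM (median 18.8) in HGPS and 0.651 to 5.18 CPM (median 2.33) in 2-mo WT (log2 fold change 2.93, SE 0.49). The scavenger receptor Cd163, a marker of resident macrophages, was at 59.9 to 96.1 CPM (median 80.3) in HGPS and 29 to 42.7 CPM (median 34.9) in 2-mo WT (log2 fold change 1.13, SE 0.24), and the lipid sensor Trem2 at 2.36 to 6.13 CPM (median 4.75) in HGPS and 1.18 to 2.28 CPM (median 1.58) in 2-mo WT (1.44, SE 0.23). Both rose, as did the pan-macrophage genes Cd68 (log2 fold change 1.04) and Adgre1 (0.83). When the fat marker score was added, 22 members rose, none was called and the median was 1.01. With HGPS replicates 4 to 6 only, 6 were called, and with replicates 1 to 3 only, 4. Leaving out 2-mo WT replicate 4 gave 9 called. The number of markers that fell was 0 with HGPS replicate 1 or 3 left out, and 1 with HGPS replicate 2, 5 or 6 or 2-mo WT replicate 3, 4, 5 or 6 left out.

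Few genes of other leukocytes reached the count limit. Of 20 T and NK cell markers 3 were tested, and Cd3e, of the T cell receptor complex, stayed at 0 to 0.251 CPM in HGPS and 0 to 0.319 CPM in 2-mo WT. Cd2, of T and NK cells, was at 0.374 to 1.41 CPM (median 0.640) in HGPS and 0 to 0.324 CPM (median 0.161) in 2-mo WT (log2 fold change 1.92, SE 0.66), with an adjusted p of 0.0233 by edgeR and of 0.0618 without HGPS replicate 6. Of 18 B and plasma cell markers 5 were tested, at a median log2 fold change of -0.028. Of 11 tested neutrophil and mast cell markers, 2 rose. Without HGPS replicate 6 the number was 1. The dendritic cell list had 6 tested members, of which 3 rose and 1 fell. Itgax, which macrophages also use, was its called member (log2 fold change 2.48, SE 0.52). This call was lost with HGPS replicate 1, 2, 3, 4 or 6 or 2-mo WT replicate 1, 2, 3, 4 or 5 left out.

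More chemokine genes rose than fell. Of 30 tested chemokines and receptors, 10 were called higher and none lower, 17 rose and 3 fell. The number falling was 1 with HGPS replicate 1 or 2-mo WT replicate 1 left out. Ccl8 was at 7.05 to 29.3 CPM (median 11.3) in HGPS and 0.976 to 2.07 CPM (median 1.42) in 2-mo WT (log2 fold change 3.20, SE 0.41). Ccl2, the main ligand of Ccr2, was at 1.29 to 5.23 CPM (median 2.65) in HGPS and 0.209 to 0.879 CPM (median 0.329) in 2-mo WT (log2 fold change 2.80, SE 0.41). Ccl6 (log2 fold change 1.86) and Ccl9 (1.59), both made by myeloid cells, were called higher, as was Cx3cl1 (0.81), the membrane-bound chemokine fractalkine. Ccl11, eotaxin, had a log2 fold change of -0.24 (adjusted p = 0.199). In the fit with the fat marker score 2 were called and 11 rose, and 6 were called when HGPS replicate 6, 2-mo WT replicate 3 or 2-mo WT replicate 4 was left out.

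Interferon-stimulated genes rose in part. Of 39 tested, 20 rose, 1 fell and 6 were called, at a median of 0.56. Ifit1, which binds foreign RNA caps, was at 4.2 to 8.98 CPM (median 7.01) in HGPS and 1.25 to 3.01 CPM (median 2.12) in 2-mo WT (log2 fold change 1.70, SE 0.31). Oas2 (log2 fold change 2.04, SE 0.37) and Oasl2 (1.17, SE 0.24), of the family that senses double-stranded RNA, and the transcription factor Irf7 (1.42, SE 0.30) were called, whereas Ifit2 had a log2 fold change of 0.19 (adjusted p = 0.218). With DESeq2 in place of edgeR 13 were called, with HGPS replicates 4 to 6 only 1, and with the fat marker score in the fit none, where 11 still rose. The interferon-stimulated response element was taken as GAAA, any 2 bases and GAAA on either strand. It was in 15 of 32 windows of the list's members, tested or not (46.9%, against 3.44% of all). Of the 4 windows of called members, 1 held it.

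Of 25 tested antigen presentation genes, 13 rose and none fell. The class II gene H2-Eb1 was at 40.7 to 138 CPM (median 59.7) in HGPS and 18 to 30.2 CPM (median 23.5) in 2-mo WT (log2 fold change 1.53, SE 0.36), and the costimulatory ligands Cd80 (2.61, SE 0.35) and Cd86 (1.10, SE 0.20) were called. The class I heavy chain H2-K1 had a log2 fold change of 0.25 (adjusted p = 0.22). These genes are closely related, so their counts may be shared.

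The complement genes split. Of 25 tested, 12 rose and 7 fell. C3, the central component, was at 448 to 873 CPM (median 601) in HGPS and 245 to 382 CPM (median 287) in 2-mo WT (log2 fold change 1.05, SE 0.16), and C4b at 223 to 706 CPM (median 263) in HGPS and 77.4 to 141 CPM (median 108) in 2-mo WT (1.59, SE 0.25). The macrophage gene C1qb, of the starting complex, rose by 1.06 on the log2 scale (SE 0.20). C7, of the membrane attack complex, went the other way, from 139 to 205 CPM (median 176) in 2-mo WT to 50.8 to 80.2 CPM (median 60.5) in HGPS (log2 fold change -1.48, SE 0.13, adjusted p = 1.08e-07).

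Of 25 tested genes of the IL-6 and STAT3 list, 9 rose and 2 fell, at a median of 0.19. Called higher were 5, or 3 with HGPS replicate 2, 3 or 6 or 2-mo WT replicate 2 or 4 left out. The acute phase gene Hp, haptoglobin, was at 238 to 1670.1 CPM (median 379.8) in HGPS and 44.3 to 156 CPM (median 79.2) in 2-mo WT (log2 fold change 2.63, SE 0.47). The cytokine receptors Il6ra (1.12, SE 0.17) and Osmr (0.69, SE 0.11) were called higher, while Il11ra1 was called lower (-0.68, SE 0.078). Of 24 tested NF-κB and TNF response genes, 6 rose and 2 fell. The TNF receptor Tnfrsf1b (log2 fold change 0.78) and Tnfaip3 (0.68), the ubiquitin-editing enzyme that ends NF-κB signalling, were called. The call of Tnfaip3 was lost when any 1 of the 12 mice was left out.

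The lysosomal genes moved both ways, with 16 members rising, 12 falling and a median of 0.10 over 43 tested. The proteases Ctsd, at 1181 to 1595 CPM (median 1342) in HGPS and 802 to 924 CPM (median 861) in 2-mo WT (log2 fold change 0.66, SE 0.071), and Ctsl (0.74, SE 0.086) were called higher, and so was Ctss (1.35, SE 0.26), which the macrophage list also holds. The regulators Tfeb (log2 fold change -0.43) and Mitf (-0.53) fell and Tfe3 (0.26) rose.

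Most genes of the integrated stress response rose. Kinases that sense amino acid shortage, unfolded protein or double-stranded RNA are known to act through eIF2α to raise translation of the transcription factor ATF4, so that its mRNA need not change. Of 34 tested members, 15 were called higher and none lower, 25 rose and 3 fell, at a median of 0.55. Atf4 mRNA had a log2 fold change of 0.21 (adjusted p = 0.116). Psat1, an enzyme of serine synthesis, was at 28.4 to 40.9 CPM (median 32.3) in HGPS and 4.72 to 8.37 CPM (median 6.23) in 2-mo WT, with every HGPS mouse above every 2-mo WT mouse. Its log2 fold change was 2.40 (SE 0.13, adjusted p = 4.24e-10).

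Other steps of amino acid supply rose with it. Phgdh (log2 fold change 0.72) and Psph (0.74), the first and last enzymes of serine synthesis, were called higher. Mthfd2, of the mitochondrial folate cycle that uses serine, was at 39.3 to 52.1 CPM (median 44.5) in HGPS and 9.67 to 15.8 CPM (median 13.4) in 2-mo WT (log2 fold change 1.76, SE 0.22), and Asns, asparagine synthetase, at 17.6 to 32.2 CPM (median 22.9) in HGPS and 2.2 to 10.2 CPM (median 4.7) in 2-mo WT (2.13, SE 0.27). Both were called. The transporters Slc7a5 (log2 fold change 1.53, SE 0.12) and Slc3a2 (0.81, SE 0.11), which together carry large neutral amino acids, were called as well. Slc7a11, the cystine transporter, was at 2.62 to 5.31 CPM (median 3.77) in HGPS and 0.0696 to 0.362 CPM (median 0.202) in 2-mo WT (log2 fold change 4.14, SE 0.41), so that its fold rests on few counts in 2-mo WT. Among the stress outputs, Ddit3, which encodes CHOP, was at 20.9 to 32.3 CPM (median 24.3) in HGPS and 10.7 to 16.5 CPM (median 12) in 2-mo WT (log2 fold change 1.05, SE 0.15), Trib3, a pseudokinase that CHOP induces, rose by 1.61 on the log2 scale (SE 0.25), and Chac1, which degrades glutathione, by 2.58 (SE 0.21). With the fat marker score in the fit 10 members were called and 21 rose.

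ATF4 binds a composite site in many of these promoters. The 8 letters TGATGCAA or TGATGAAA, on either strand, were in 10 of 37 windows of the list's members, tested or not (27%, against 1.9% of all). Of the 15 windows of called members, 3 held them. The called members with the smallest adjusted p that held it are shown with the match in capitals: Chac1 at chr2:119351019-119351086, plus strand, and Slc7a11, with 2 matches, at chr3:50443623-50443709, minus strand.
Chac1: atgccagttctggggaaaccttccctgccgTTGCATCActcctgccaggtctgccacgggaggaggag
Slc7a11: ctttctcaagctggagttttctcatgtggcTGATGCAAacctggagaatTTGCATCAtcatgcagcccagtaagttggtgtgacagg

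Most chaperones of the endoplasmic reticulum rose. Of 31 tested, 22 rose, 1 fell and 8 were called. Their summed level was 7226 to 8609 CPM (median 7835) in HGPS and 4930.0 to 5473 CPM (median 5147) in 2-mo WT, so that no HGPS mouse was within the range of 2-mo WT. Hspa5, the main Hsp70 of the reticulum, BiP, was at 1351 to 2109 CPM (median 1622) in HGPS and 558 to 794 CPM (median 617) in 2-mo WT (log2 fold change 1.38, SE 0.11, adjusted p = 6.84e-08). Hsp90b1 (log2 fold change 0.69), the disulfide isomerase Pdia4 (0.78), the co-chaperone Dnajb9 (0.90) and the secreted factors Manf (0.96) and Creld2 (0.96) were called. Derl3, of the channel that returns misfolded protein to the cytosol, was at 3.62 to 7.1 CPM (median 5.15) in HGPS and 0.155 to 0.570 CPM (median 0.255) in 2-mo WT (log2 fold change 4.06, SE 0.27).

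Heat shock chaperones did not move as a set. Of 27 tested, 6 rose and 3 fell, where 22.3% and 22% of all tested genes did, at a median of -0.0067. The called rises were those of the mitochondrial chaperones Hspa9 (log2 fold change 0.80, SE 0.084) and Hspe1 (0.64, SE 0.10), and of Hspa4l (0.59, SE 0.11). Without HGPS replicate 3, 1 chaperone was called higher. The number falling was 1 with HGPS replicate 1 or 3 or 2-mo WT replicate 4 or 6 left out. Hspb6, a small heat shock protein of smooth muscle, was called lower (log2 fold change -0.85, SE 0.095). Of 29 tested immediate early genes, which dissection is known to induce, 6 rose and 7 fell, where 22.3% and 22% of all tested genes did. The number falling was 3 with HGPS replicate 1, 2 or 5 or 2-mo WT replicate 3 left out. It was 4 with HGPS replicate 4 or 2-mo WT replicate 1 or 4 left out. Jun was at 47.7 to 74.7 CPM (median 57.9) in HGPS and 91.6 to 201 CPM (median 138) in 2-mo WT (log2 fold change -1.29, SE 0.28). Atf3 fell by 1.56 on the log2 scale (SE 0.47), while Maff (log2 fold change 1.38, SE 0.18), Myc (1.05, SE 0.25) and Klf4 (0.49, SE 0.095) rose.

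Of 43 tested antioxidant genes, 27 rose and 4 fell. Hmox1, heme oxygenase, was at 35.6 to 52.8 CPM (median 43.5) in HGPS and 5.98 to 9.18 CPM (median 8.16) in 2-mo WT, with groups far apart (log2 fold change 2.49, SE 0.12, adjusted p = 1.46e-10). Among Nrf2 targets, Gclm, of glutathione synthesis, rose by 0.79 on the log2 scale (SE 0.071) and the thioredoxin reductase Txnrd1 by 0.41 (SE 0.055), whereas the quinone reductase Nqo1 had a log2 fold change of -0.14 (adjusted p = 0.283) and Gstm1 was called lower (log2 fold change -0.72, SE 0.085). Nox4, the hydrogen peroxide-producing oxidase of smooth muscle, was called lower (log2 fold change -0.71, SE 0.10), and Cybb, the oxidase subunit of phagocytes, higher (0.77, SE 0.16).

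Fat markers differed between the groups and within them. Of 19 tested brown adipocyte markers 15 rose, and of 25 white and general adipocyte markers 23 rose and 1 fell, with medians of 1.86 and 1.56. The summed brown markers were at 771 to 2454 CPM (median 1283) in HGPS and 413 to 1050.5 CPM (median 597) in 2-mo WT, and the summed white and general markers at 3131 to 8272 CPM (median 6931) in HGPS and 1546 to 4058 CPM (median 2375) in 2-mo WT. Ucp1, the uncoupling protein that defines brown fat, was at 103 to 967 CPM (median 316) in HGPS and 2.28 to 252 CPM (median 79.3) in 2-mo WT (log2 fold change 2.19, SE 0.74), with an adjusted p of 0.0218 by edgeR and of 0.0617 without HGPS replicate 2. Adipoq, adiponectin, was at 88.4 to 299.7 CPM (median 208) in HGPS and 22 to 113 CPM (median 49) in 2-mo WT (log2 fold change 1.74, SE 0.39). No defining marker was at 0 in all mice. By the mean log2 CPM of the brown markers, HGPS replicates 4 and 5 lay below 2-mo WT replicate 1.

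Most metabolic genes that fat tissue also uses rose. Of 31 tested genes of fatty acid oxidation 27 rose and 10 were called, and of 25 of the TCA cycle and pyruvate dehydrogenase 20 rose and 7 were called. Of 22 lipogenesis genes 19 rose and 9 were called. Cpt1b, the carnitine transferase of muscle and brown fat, was at 39.8 to 178 CPM (median 86.2) in HGPS and 1.95 to 70.4 CPM (median 22.8) in 2-mo WT (log2 fold change 2.02, SE 0.59). Fasn, fatty acid synthase, was at 643 to 3072 CPM (median 2010.4) in HGPS and 278 to 863 CPM (median 648) in 2-mo WT (log2 fold change 1.63, SE 0.40). Scd1, the Δ9 desaturase, was at 2027 to 5251 CPM (median 4135) in HGPS and 549 to 1421 CPM (median 1011) in 2-mo WT (log2 fold change 1.94, SE 0.33), the groups apart. With 1 mouse left out at a time, 4 to 21 genes of fatty acid oxidation, 0 to 13 of the TCA cycle and 3 to 15 of lipogenesis were called. The counts were lower when any of HGPS replicates 1, 2, 3 or 6 or 2-mo WT replicates 2 to 6 was left out and higher without HGPS replicate 4, and those of the first 2 lists were also higher without 2-mo WT replicate 1. Cpt1a, the form of the transferase that most other cells use, had a log2 fold change of -0.10 (adjusted p = 0.444).

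With the mean log2 CPM of both fat marker lists as a covariate, the counts of these lists fell away. The medians of the adipocyte lists are bound to go near 0 in it, since the score is made of their members. The score also shares Thrsp, Agpat2 and Dgat2 with the lipogenesis list, and Cpt1b and Fabp3 with that of fatty acid oxidation. The median of fatty acid oxidation went from 0.94 to 0.12 (3 rising), of the TCA cycle from 0.62 to 0.09 (none rising) and of lipogenesis from 1.24 to 0.14 (2 rising). In the same fit the median of the p53 targets was 0.61 (24 rising), of the integrated stress response 0.50, of the G2 and mitosis genes 1.34 and of the smooth muscle apparatus -0.54. The score is itself higher in HGPS, and the median SE over all genes went from 0.12 to 0.15. Of the 247 genes given here with a fold change, 28 that had risen or fallen were above an adjusted p of 0.05 in this fit, namely Adipoq, Atf3, Cd2, Cdkn2c, Dbp, Depp1, Dhrs9, Fasn, Glb1, H2-Eb1, Hey2, Hk2, Hp, Igf1, Kcnk3, Lmna, Mitf, Myc, Per2, Psph, Robo4, Scd1, Tcap, Tfe3, Tgfb1, Tgfb3, Uhrf1 and Vat1l. Ucp1 (log2 fold change -0.48) and Cpt1b (-0.14), which like Adipoq are members of the score, changed sign in it, as did Kdr. With HGPS replicates 4 to 6 only, 18 were above it, namely Ankrd1, Atf3, Ccnd2, Cd2, Cdkn2c, Cpt1b, Dbp, Fasn, Igfbp2, Kdr, Notch3, Per2, Robo4, Tfe3, Tfeb, Tgfb1, Tgfb3 and Ucp1, at a median SE over all genes of 0.14. Whether fat on or in the vessel sets the metabolic differences was not tested.

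**Figure D4:**
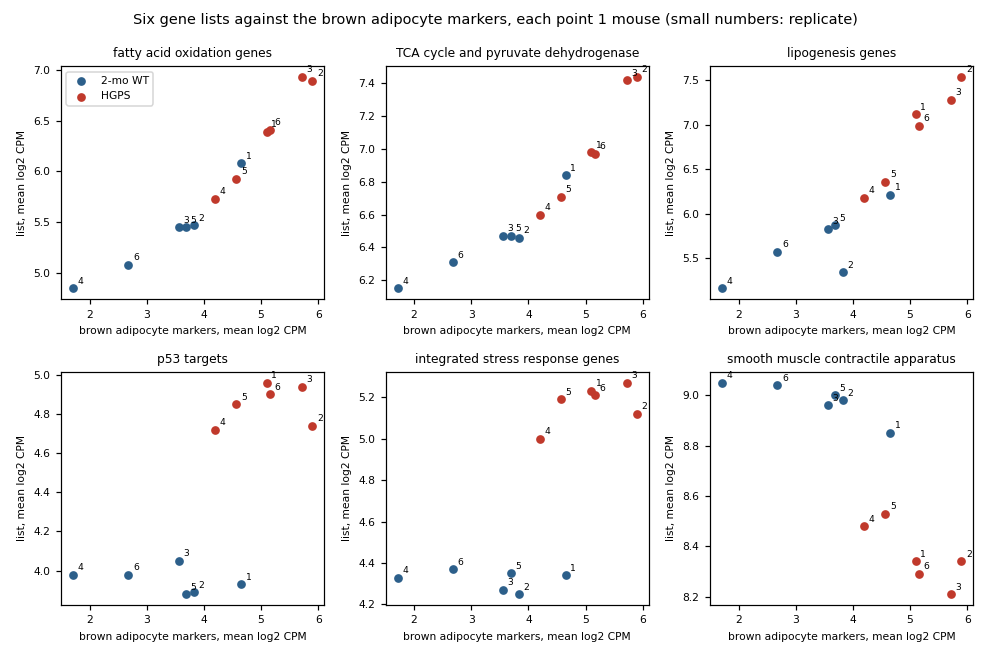
Each point is 1 mouse, with its replicate number, placed by its mean log2 CPM of the brown adipocyte markers on the x axis and of another list on the y axis. In the 3 metabolic panels HGPS replicates 4 and 5 lie among or next to 2-mo WT replicate 1. The groups do not overlap on the y axis in the p53, integrated stress response and smooth muscle panels. The p53 list was at 4.72 to 4.96 in HGPS and 3.88 to 4.05 in 2-mo WT. On the x axis the brown markers were at 4.2 to 5.9 in HGPS and 1.71 to 4.65 in 2-mo WT, so few mice share a level. Whether fat sets any of these differences was not tested. Cpt1b and Fabp3 are in both the brown adipocyte and the fatty acid oxidation lists.

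**Figure D5:**
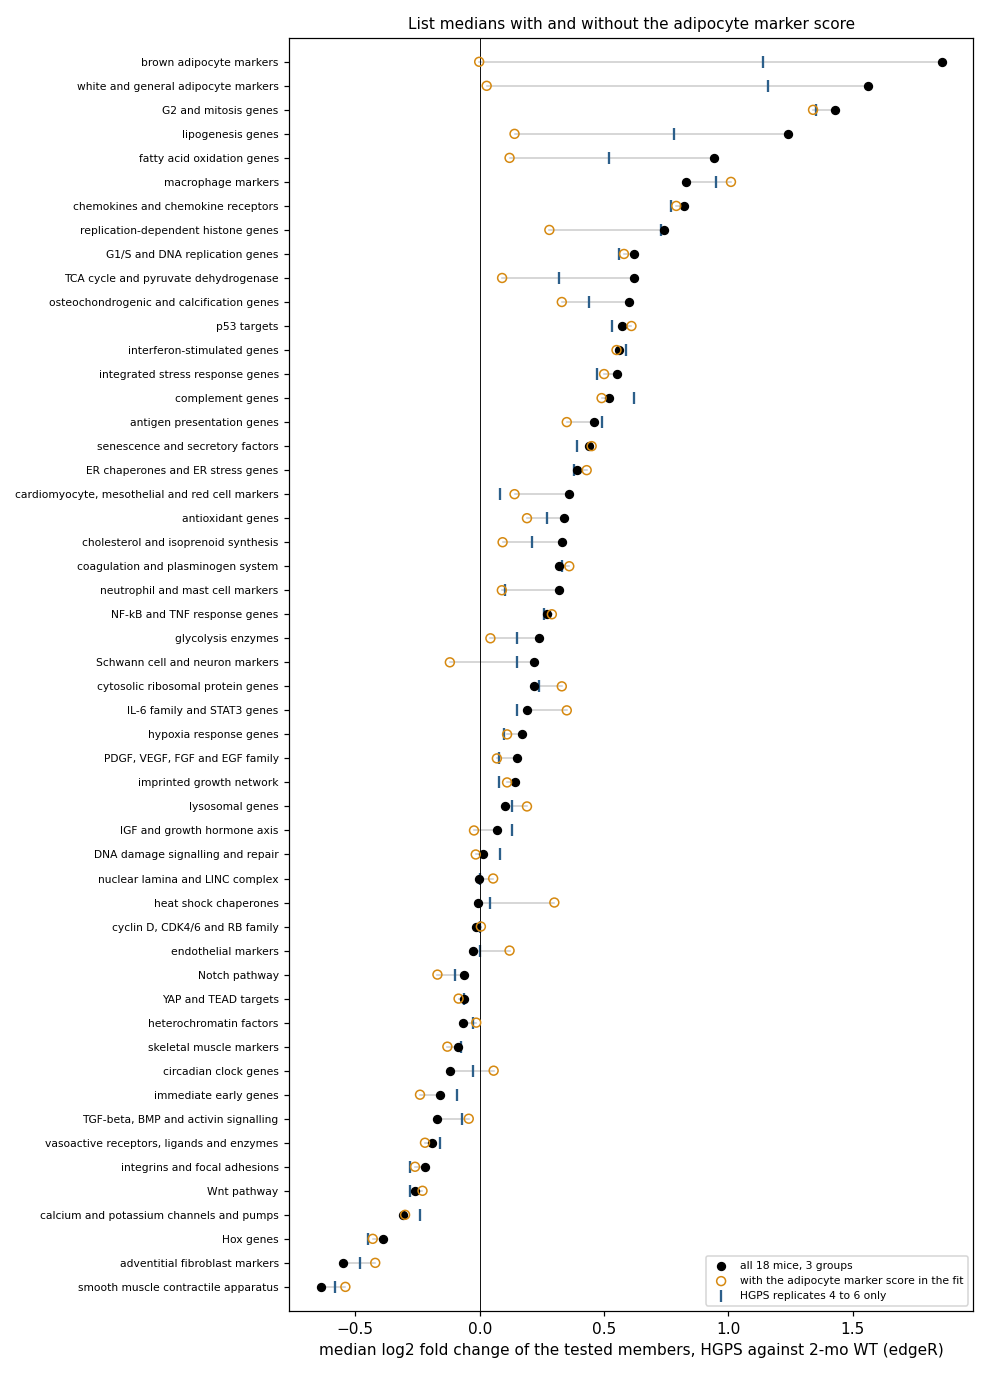
For each gene list on the y axis, the x axis gives the median log2 fold change of its tested members in HGPS against 2-mo WT, as a filled circle for the fit of all mice, an open circle with the adipocyte marker score in the fit, and a bar for HGPS replicates 4 to 6 only. The open circles of the adipocyte, lipogenesis, fatty acid oxidation and TCA lists lie near 0 (fatty acid oxidation at 0.12), and those of the p53, mitosis, stress and smooth muscle lists near the filled ones. The adipocyte lists make up the score, so theirs are bound to lie there, and the lipogenesis and fatty acid oxidation lists share genes with it.

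Glycolysis genes were mixed, 13 of 26 rising and 5 falling. Ldha, lactate dehydrogenase A, was at 277 to 475 CPM (median 403) in HGPS and 174 to 241 CPM (median 206) in 2-mo WT (log2 fold change 0.94, SE 0.11), and hexokinase 2, Hk2, rose by 0.68 on the log2 scale (SE 0.13), while Pfkm, the muscle phosphofructokinase, fell by 0.54 on the log2 scale (SE 0.058). Once the fat marker score was in the fit 3 rose and 4 fell. Hif1a mRNA had a log2 fold change of 0.11 (adjusted p = 0.216), and of 22 tested hypoxia response genes 6 rose, 1 fell and the called one, the vasodilator peptide Adm, was lower (log2 fold change -0.92, SE 0.17). The number of hypoxia genes that fell was 2 with HGPS replicate 4 or 2-mo WT replicate 1 left out. Of 28 tested genes of cholesterol and isoprenoid synthesis 11 rose. Called were Fdps (log2 fold change 0.66, SE 0.13), which makes the farnesyl pyrophosphate that also modifies prelamin A, and Pmvk (0.70, SE 0.10), upstream of it. The call of Fdps was lost without HGPS replicate 2 or 3 or 2-mo WT replicate 2, 5 or 6. When the fat marker score was added 2 rose and none was called.

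Among growth factor pathways, changes ran both ways. In TGF-β, BMP and activin signalling, 3 of 50 tested genes were called higher and 9 lower. Of the ligands, Tgfb1 (log2 fold change 0.73, SE 0.18) and Tgfb2 (0.45, SE 0.11) rose and Tgfb3 fell (-0.25, SE 0.066). The activin inhibitors Fst, follistatin, at 17.1 to 39.4 CPM (median 28.3) in HGPS and 5.9 to 10.2 CPM (median 8.19) in 2-mo WT (log2 fold change 1.82, SE 0.22), and Fstl3 (0.64, SE 0.078) were called higher, and the activin subunit Inhba lower (-0.60, SE 0.10). Of the BMP transducers and targets, Smad9 (log2 fold change -1.11), Id2 (-1.01), Id4 (-0.65) and the inhibitor Smad6 (-0.88) were called lower, whereas Id3 had a log2 fold change of -0.23 (adjusted p = 0.211). Tgfbi, a TGF-β-induced matrix protein, was at 188 to 302 CPM (median 223) in HGPS and 437 to 600.2 CPM (median 504) in 2-mo WT (log2 fold change -1.13, SE 0.11). Counts of called genes in this list went to 2 and 2 with the fat marker score in the fit, and 5 were called lower when HGPS replicate 5, HGPS replicate 6 or 2-mo WT replicate 4 was left out.

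In the Wnt pathway 8 of 39 tested genes were called lower and 2 higher. Sost, the secreted inhibitor sclerostin, was at 469 to 531 CPM (median 482) in HGPS and 814 to 912 CPM (median 834) in 2-mo WT (log2 fold change -0.78, SE 0.074). The ligands Wnt5a (log2 fold change -0.92), Wnt9a (-0.70) and Wnt16 (-0.63) and the target gene and inhibitor Nkd1 (-1.14) were called lower, and the secreted inhibitor Frzb higher (1.05, SE 0.19). Of 23 tested Notch pathway genes, 2 rose, 7 fell and 2 were called lower, at a median of -0.065. The number rising was 0 with HGPS replicate 1 left out. It was 1 with HGPS replicate 4, 5 or 6 or 2-mo WT replicate 2, 3, 4 or 5 left out. Notch2 (log2 fold change -0.48), Notch3 (-0.56) and the ligand Jag1 (-0.44) fell, and of the called genes Hey2 (-0.60) is a target of Notch in arterial muscle. The call of Hey2 was lost with HGPS replicate 1, 2, 3, 5 or 6 or 2-mo WT replicate 1, 3, 4 or 6 left out. Notch1 had a log2 fold change of 0.26 (adjusted p = 0.223).

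Of PDGF, VEGF, FGF and EGF family genes, 11 rose and 11 fell among 39 tested, 7 of them falling when 2-mo WT replicate 3 was left out. Pgf, placental growth factor, a ligand of Flt1, was at 12.8 to 20.4 CPM (median 16.9) in HGPS and 1.78 to 4.4 CPM (median 2.52) in 2-mo WT (log2 fold change 2.61, SE 0.32). Pdgfc, a ligand of Pdgfra, rose by 1.12 on the log2 scale (SE 0.13), where its receptor had fallen. In the IGF axis 7 of 21 tested genes rose and 4 fell, at a median of 0.069. Igf1 rose (log2 fold change 0.62, SE 0.13), as did Pappa, the protease that frees it from its binding proteins (1.48, SE 0.19), and Igfbp2 (1.58, SE 0.33), while Igf1r had a log2 fold change of -0.16 (adjusted p = 0.256). In the imprinted network 7 of 20 tested genes rose and 2 fell, at a median of 0.14. H19 was at 3.55 to 23.2 CPM (median 7.47) in HGPS and 1.18 to 2.55 CPM (median 2.09) in 2-mo WT (log2 fold change 2.45, SE 0.41), its neighbour Igf2 had a log2 fold change of -0.37 (adjusted p = 0.189), and Peg10 (1.29, SE 0.19) and Rian (0.83, SE 0.12) were called higher and Sgce lower (-0.63, SE 0.091).

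Of 19 tested osteochondrogenic and calcification genes, 9 rose and 2 fell, 5 were called higher and 1 lower. With 1 mouse left out at a time, 2 to 5 were called higher. Only 3 members are given here by name, and they do not stand for the whole list. Tnfrsf11b, the decoy receptor osteoprotegerin, was at 51 to 88 CPM (median 63.2) in HGPS and 17.7 to 29.8 CPM (median 22.2) in 2-mo WT (log2 fold change 1.52, SE 0.15). The matrix Gla protein gene Mgp (log2 fold change 0.60, SE 0.12) and the pyrophosphate transporter gene Ank (0.54, SE 0.088), which hold back calcification, rose. In the coagulation system 9 of 21 tested genes rose and 2 fell. The number falling was 1 with HGPS replicate 2, 3 or 5 or 2-mo WT replicate 2, 3 or 4 left out. F3, tissue factor, was at 50.7 to 76.2 CPM (median 64.7) in HGPS and 111 to 194 CPM (median 139.7) in 2-mo WT (log2 fold change -1.19, SE 0.17), and Gas6, a vitamin K-dependent ligand of Axl, rose (0.56, SE 0.074).

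Clock genes moved both ways, Hox genes fell in part and ribosomal protein genes rose in part. Of 21 tested clock genes 5 rose and 7 fell, where 22.3% and 22% of all tested genes did. Cry1 rose (log2 fold change 0.82, SE 0.14), and Per2 (-0.71, SE 0.16), Cry2 (-0.52, SE 0.12) and the output gene Dbp (-1.25, SE 0.31) fell, while Arntl had a log2 fold change of 0.12 (adjusted p = 0.678). The hour of dissection is not given in the labels. Of 22 tested Hox genes 9 fell and none rose, the called ones being Hoxb3 (log2 fold change -0.87, SE 0.14), Hoxb7 (-0.76, SE 0.14) and Hoxa7 (-0.67, SE 0.12). Of 79 ribosomal protein genes 41 rose and none fell, at a median of 0.22. Rps2 was the called one (log2 fold change 0.69, SE 0.065). The number called was 2 with HGPS replicate 2 or 2-mo WT replicate 1 left out, 3 with 2-mo WT replicate 6 left out, and 5 with HGPS replicate 4 left out.

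Nerve, muscle and blood markers were checked too. Of 14 tested Schwann cell and neuron markers 2 rose and 2 fell. Of these the number rising was 1 with HGPS replicate 2, 3 or 6 or 2-mo WT replicate 2, 4, 5 or 6 left out. Of 10 tested skeletal muscle markers 2 rose and 3 fell, and their summed level was 100.4 to 166 CPM (median 106) in HGPS and 86.1 to 151 CPM (median 113) in 2-mo WT. Tnnt2, cardiac troponin T, was called higher, at 6.61 to 17 CPM (median 10.9) in HGPS and 1.38 to 3.1 CPM (median 2.12) in 2-mo WT (log2 fold change 2.41, SE 0.26), whereas Myh6, the cardiac myosin, was not tested, at 0 to 7.94 CPM in HGPS and 0.103 to 0.976 CPM in 2-mo WT. The red cell gene Hbb-bs varied widely in both groups, at 322 to 2819 CPM (median 1726) in HGPS and 271 to 3204 CPM (median 1196) in 2-mo WT.

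For genes outside the lists, the largest rises were taken among called genes that averaged 100 counts or more and whose groups did not overlap. They began with Cyp2b10, a cytochrome P450 (log2 fold change 2.93, SE 0.37), and Anxa8, a phospholipid-binding annexin (2.83, SE 0.28). Esm1, endocan, a proteoglycan of activated endothelium, was at 10.2 to 27.7 CPM (median 17.7) in HGPS and 1.59 to 4.99 CPM (median 2.48) in 2-mo WT (log2 fold change 2.56, SE 0.30). Sncg, γ-synuclein, which adipocytes and sensory neurons express, was at 28.9 to 52.8 CPM (median 39.9) in HGPS and 4.97 to 9.83 CPM (median 6.8) in 2-mo WT (log2 fold change 2.50, SE 0.21). Gfra1, the GDNF receptor (log2 fold change 2.34, SE 0.19), Ddit4l, a relative of the mTORC1 inhibitor Ddit4 (2.29, SE 0.24), the metal-binding protein Mt2 (2.12, SE 0.35) and the acute phase protein Orm1 (2.07, SE 0.33) followed. Lyz1 (log2 fold change 2.40, SE 0.46) is a close copy of the macrophage lysozyme gene Lyz2 (1.12, SE 0.22), and their counts may be shared. The skin adhesion protein gene Cdsn, the synaptotagmin gene Syt12, Depp1, Vat1l, the retinol dehydrogenase gene Dhrs9 and the collagen gene Col8a1 completed the 15, with log2 fold changes of 2.63, 2.28, 2.26, 2.25, 2.12 and 2.78.

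The largest falls outside the lists included 3 genes known from striated muscle. Which cells of the vessel express them was not tested, and the summed skeletal muscle markers overlapped between the groups. Ky, a protein of the muscle Z disc, was at 3.22 to 9.67 CPM (median 6.92) in HGPS and 12.8 to 32 CPM (median 27.6) in 2-mo WT (log2 fold change -1.86, SE 0.28), Tcap, which caps titin, fell by 1.61 on the log2 scale (SE 0.30), and Fbxl22, a ubiquitin ligase subunit of striated muscle, by 1.58 (SE 0.10). Tppp3, a tubulin-binding protein of connective tissue progenitors, was at 31.8 to 42.2 CPM (median 33.3) in HGPS and 98.4 to 141 CPM (median 106) in 2-mo WT (log2 fold change -1.69, SE 0.096, adjusted p = 5.29e-10). Foxf1, a transcription factor of mesenchyme downstream of Hedgehog, fell by 1.63 on the log2 scale (SE 0.19), and Hhip, the Hedgehog-binding inhibitor and target gene, by 1.58 (SE 0.17). Cdh3, Fam19a1, Gprasp2, Gm830, E030013I19Rik, Olfr224, Igsf9, Smim5 and Col19a1 completed the 15, at log2 fold changes from -1.75 to -1.47. E030013I19Rik is annotated as an antisense RNA, and the use of strand in the counting is not stated.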

How the data were processed

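Total RNA of the descending aorta was sequenced from 18 mice, and the authors deposited 1 table of estimated counts per gene, whole numbers for 54281 Ensembl genes in 18 columns. Each column was matched to a sample by its title, and 0 columns were left without one. The study's methods give paired-end reads of a stranded, rRNA-depleted library, quantified with salmon against GENCODE transcripts and summed per gene with tximport. The submitters' processing notes name Bowtie 0.12.2 and mm10 (GRCm38), and which of the 2 made the table is not given in the sources used here. Estimated counts share reads between near-identical genes, so values of gene copies are uncertain. The depth of 12.4 to 30.8 M counts limits genes of a few counts.

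The 14771 genes that reached 10 counts in 6 or more of the 12 mice were fitted in 1 edgeR quasi-likelihood model over all 18 mice (edgeR 4.0.16, R 4.3.3) with TMM factors, 1 coefficient per group and 15 residual degrees of freedom. The SE was taken from the log2 fold change and the F statistic, as the change over the root of F. CPM is per M of the TMM-scaled library of tested genes. The procedure was tested on simulated data first. A list's level in a mouse is the mean log2 CPM (prior count 2) of its tested members, and its summed level the CPM of all members. No list was given a test.

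The comparison, its members and the 55 gene lists (1629 genes, 1438 of them tested, 308 called) were chosen with earlier results of these data known. Any list member could be named. By plan the leading 3 of a list came first, and up to 4 averaging 100 counts or more with the smallest adjusted p. Not all of these are named, so the named members are a choice and not a fixed set. Outside the lists, the 15 largest rises and falls were named among those called, averaging 100 counts or more, whose groups did not overlap. Promoter windows and their positions are from RefSeq (GRCm38.p6).

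The chi-square per degree of freedom between mice of 1 group was 11.2 to 92.0 over 30 pairs, so that no pair was a library deposited more than once. Mice of the 2 groups with the same replicate number are different animals, and no label says that the numbers pair them. Alternatives were another tool (DESeq2 1.42.0), scaling, filter, choice of mice, a replicate block, an adipocyte covariate and a test against a fold.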

Additional observations from a re-analysis of the deposited data

Results flagged for a closer look

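For every gene given with values and every summed list, the highest and lowest of the 6 mice of a group were compared with the others. In 33 of 512 groups of 6 values 1 mouse stood apart, its gap to the nearest mouse being more than 0.625 of the range (Dixon's 95% value for 6 samples). Chance alone gives about 1 in 20 groups. Each value follows against that of the nearest mouse of its group. The summed skeletal muscle markers were at 166 CPM in the highest HGPS mouse and 121 CPM in the next. 2-mo WT replicate 1 had the highest values of its group for Ccl2 at 0.879 against 0.407 CPM, and Cpt1b at 70.4 against 26 CPM. 2-mo WT replicate 2 had the highest value of its group for Hif1a at 339 against 295 CPM. 2-mo WT replicate 2 had the lowest values of its group for Cx3cl1 at 10.6 against 14.8 CPM, and H2-K1 at 128 against 167 CPM. 2-mo WT replicate 3 had the highest value of its group for Pmaip1 at 0.765 against 0.362 CPM. 2-mo WT replicate 4 had the highest value of its group for Sost at 912 against 839 CPM. 2-mo WT replicate 4 had the lowest value of its group for Ccnb1 at 0.325 against 0.835 CPM. 2-mo WT replicate 5 had the highest values of its group for Rpa1 at 65.6 against 59.8 CPM, Glb1 at 52.9 against 47.2 CPM, and Tppp3 at 141 against 114 CPM. 2-mo WT replicate 6 had the highest values of its group for Ddit3 at 16.5 against 12.3 CPM, and Maff at 19 against 13.8 CPM. 2-mo WT replicate 6 had the lowest value of its group for Rian at 46.4 against 59.8 CPM. HGPS replicate 1 had the highest value of its group for Mdm2 at 78.1 against 67.8 CPM. HGPS replicate 3 had the highest value of its group for Hspe1 at 92.7 against 76.6 CPM. HGPS replicate 4 had the highest values of its group for Oasl2 at 19.5 against 11.9 CPM, Hif1a at 348 against 315 CPM, and Jag1 at 93.5 against 80.6 CPM. HGPS replicate 5 had the highest values of its group for Tagln at 6986 against 5344 CPM, Myl9 at 2800.1 against 2148 CPM, and Dbp at 23.9 against 15.2 CPM. HGPS replicate 5 had the highest values also for Hoxb7 at 5.02 against 4.08 CPM, Tcap at 29 against 12.8 CPM, and Tppp3 at 42.2 against 34.2 CPM. HGPS replicate 6 had the highest values of its group for Ccr2 at 43 against 20.2 CPM, Cd2 at 1.41 against 0.697 CPM, and Ccl8 at 29.3 against 13.4 CPM. HGPS replicate 6 had the highest values also for Ccl6 at 99.2 against 61.4 CPM, C4b at 706 against 303 CPM, and Hp at 1670.1 against 451 CPM. HGPS replicate 6 had the highest value also for Il6ra at 21.2 against 13.8 CPM. The cause of these values was not tested.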

How the results depend on the processing

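The counts of called genes, 809 higher and 655 lower, stayed within 1.5 times under DESeq2 (1144 and 776), the 3 other scalings, both other filters, the 12 mice alone and HGPS replicates 1 to 3 only (781 and 596). They ranged from 591 to 910 and from 555 to 711 with 1 mouse left out, and the counts at an adjusted p under 0.05 from 2938 to 3325 and from 2902 to 3303. With HGPS replicates 4 to 6 only, 279 were called higher and 232 lower, and 2071 rose and 1947 fell. With the adipocyte marker score in the fit these were 223 and 242, and 1918 and 1934. Tested against a 1.5-fold change, 104 were called higher and 39 lower. The cause of these drops was not tested. HGPS replicates 1 to 3 only and 4 to 6 only had the same number of mice and the same median SE over all genes, 0.14. Of 1464 called genes, 1450 were called by DESeq2 too, 495 with HGPS replicates 4 to 6 only and 403 with the adipocyte score. No setting moved the median of all genes by more than 0.017.

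With the replicate block 684 genes were called higher and 593 lower, and 3209 rose and 3130 fell. The deviations of mice with the same number correlated at -0.0168 to 0.191, and 2 of 6 HGPS mice correlated best with their own number. The labels do not say that the numbers mark litters or days, and these correlations cannot decide it. Of 1464 called genes 1221 were called with the block too. Of the 189 called genes given by name, 18 lost the call under it, at adjusted p of 0.00113 to 0.00435 in edgeR, namely Adgre1, Cacna1g, Cd163, Cd86, Clspn, Csf1r, Cybb, Hey2, Hk2, Id4, Igf1, Igfbp2, Irf7, Oasl2, Smad6, Tcap, Tnfaip3 and Uhrf1. No named gene that had risen or fallen went above an adjusted p of 0.05 with the block, and Atf4 went to 0.0116 (log2 fold change 0.21).

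Of the genes given with a fold change, the following changed sign. Tagln was at 6.5e-05 by DESeq2, 5.9e-05 with RLE, 0.0039 with the upper quartile, 0.011 with library totals, 0.0029 and 0.0090 with the wider and the stricter filter, 0.029 with HGPS replicates 4 to 6 and 0.18 with the adipocyte score, and -0.091 to 0.041 with 1 mouse left out. With replicates 1 to 3 only Ifit2 was at -0.0083, and with replicates 4 to 6 only Dpt was at 0.073. With the adipocyte score, the median of the brown adipocyte markers was -0.0021, Ucp1 was at -0.48, Cpt1b at -0.14, Kdr at -0.32, Ccl11 at 0.057, Nqo1 at 0.028, Cpt1a at 0.12 and Arntl at -0.35. The brown markers, with Ucp1 and Cpt1b among them, are part of the score. Genes under about 1 CPM, such as Slc7a11, Cd2 and Derl3 in 2-mo WT, rest on few counts, so their folds are the least exact.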
